A study of Mus musculus with 8 samples.

Results

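Chromatin accessibility at 8 genes of the NF-kB system was followed in mouse melanoma cell lines with and without STAT3. The genes were the 5 transcription factor genes Nfkb1, Nfkb2, Rel, Rela and Relb, the inhibitor gene Nfkbia, the feedback gene Tnfaip3 and the adhesion gene Icam1. A region of the deposited count table was taken as a member when it overlapped one of these genes, or lay within 50 kb of it with that gene's end as the nearest end of a protein-coding gene. Of 148664 regions in the table, 72 were members. Nfkb1 had 27 of them, Nfkbia 15, Tnfaip3 15, Rel 5, Nfkb2 4, Rela 3 and Relb 3, while Icam1 had 0. After a filter on low counts 71 of the 72 could be tested. The region left out lay 49.4 kb from Nfkb1.

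The measurements were 8 ATAC-seq libraries, in which the Tn5 transposase cuts accessible DNA and adds sequencing adapters. Knockout lines 112 and 113 lack STAT3 per the labels, and lines 119 and 73 are labelled wild type, with 2 libraries per line. The growth protocol writes the genotypes as Stat3fl and Stat3∆. All 4 lines were grown out of lymph node cell suspensions of mice whose skin melanoma began at about 25 to 30 weeks. The protocol calls a line a pool of cells, the sample labels call it a clone, and the driver of the melanoma and the means of deleting Stat3 are not given in the sources used here. The title numbers after the letter p were 18 and 44 in the knockout lines 112 and 113 and 14 and 68 in the wild-type lines 119 and 73, and their meaning is not stated.

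NF-kB factors are dimers of REL-family proteins that are held inactive in the cytoplasm by IkB proteins. Signals from TNF, IL-1 and Toll-like receptors activate the IKK kinases, which mark IkB for destruction and free the dimers to enter the nucleus. There they bind kappaB sites and switch on inflammatory and survival genes, and also genes such as Nfkbia and Tnfaip3 whose products shut the pathway off again. In melanoma the pathway is known for its activity in dedifferentiated, inflammatory cell states.

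Library totals over the table ran from 2697546 counts (line 112 replicate 2) to 7464336 counts (line 119 replicate 1). The start region of Stat3 had 25.9 to 38.5 CPM in the knockout libraries and 18.2 to 38.9 CPM in the wild-type libraries, so accessibility there did not check the labels. CPM are counts scaled to a library total of 1000000 with TMM library sizes. The regions of Ddx3y, Eif2s3y and Uty on chromosome Y had 0 counts in all 4 knockout libraries, where 3 counts would be at most 0.923 CPM, and 8.01 to 19.4 CPM in the wild-type libraries. None of these genes passed the adjusted genotype test of edgeR (adjusted p 0.143 for each, the smallest value of all tested regions). Genotype and this chromosome Y difference cannot be told apart. All 7 melanocyte markers had a gene-end region, and they summed to 124 to 250 CPM in the knockout and 74.6 to 123 CPM in the wild-type libraries. At 5 of them (Sox10, Tyr, Tyrp1, Dct and Mlana) all knockout libraries were above all wild-type libraries, beside 6.77% of all gene-end regions, and 0 of 7 passed the adjusted genotype test of edgeR. Dct had line means of 22.8 and 62.5 CPM in lines 112 and 113, 3.79 CPM in line 119 and 0.534 CPM in line 73, and Mlana had 10.4, 10.3, 0.745 and 0.256 CPM in the same order. Mitf and Pmel overlapped between genotypes and were highest in line 73. Of 9 leukocyte markers 5 had such a region, with sums of 34.5 to 41.7 CPM in the knockout and 26.5 to 44.8 CPM in the wild-type libraries, and the pan-leukocyte marker Ptprc had none. The 5 fibroblast markers summed to 37.2 to 46.7 CPM in the knockout libraries and 26.8 to 80.4 CPM in the wild-type libraries, with the top values in line 73. Within this sum Col1a2 and Dcn peaked in line 73, at 32.2 and 7.89 CPM, while Pdgfra (13.8 and 15.9 CPM in lines 112 and 113, 1.83 and 1.22 CPM in lines 119 and 73) and Lum were higher in all knockout libraries. The leukocyte marker Spi1 was also higher in all knockout libraries. Of 4 endothelial markers 1 had such a region, Kdr, with 2.09 to 5.54 CPM in the knockout and 5.56 to 7.5 CPM in the wild-type libraries. Of 3 keratinocyte markers 1 had one, Krt14, with line means of 5.33, 0.937, 0.363 and 3.98 CPM in lines 112, 113, 119 and 73. The part of all these markers in the results below was not tested, and with bulk cells a smaller share of open cells and less opening per cell cannot be told apart.

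Promoter sequences are shown first because the accessible starts of 4 member genes carry matches to the kappaB consensus, the motif that NF-kB dimers bind. RefSeq windows of 300 bases on GRCm38.p6, from 250 bases before a transcript start to 50 after it, were available for 6 of the 8 members as 9 windows. Nfkb1 and Relb had no window. Capitals mark kappaB consensus matches on either strand, and each sequence is written in the direction of transcription.
Nfkbia (chr12:55492598-55492897, minus strand): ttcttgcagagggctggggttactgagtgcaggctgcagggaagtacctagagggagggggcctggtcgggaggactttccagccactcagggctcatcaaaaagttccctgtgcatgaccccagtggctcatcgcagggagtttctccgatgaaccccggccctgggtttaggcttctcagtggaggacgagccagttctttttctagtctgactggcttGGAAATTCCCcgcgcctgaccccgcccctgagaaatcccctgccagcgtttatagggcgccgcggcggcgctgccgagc
Tnfaip3 (chr10:19015361-19015660, minus strand): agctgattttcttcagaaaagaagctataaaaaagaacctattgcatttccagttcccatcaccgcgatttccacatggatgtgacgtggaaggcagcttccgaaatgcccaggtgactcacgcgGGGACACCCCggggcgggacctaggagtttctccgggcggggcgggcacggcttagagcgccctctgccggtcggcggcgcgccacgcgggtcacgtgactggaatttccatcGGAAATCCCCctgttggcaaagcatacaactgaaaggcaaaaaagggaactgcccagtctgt
Rel (chr11:23770920-23771219, minus strand): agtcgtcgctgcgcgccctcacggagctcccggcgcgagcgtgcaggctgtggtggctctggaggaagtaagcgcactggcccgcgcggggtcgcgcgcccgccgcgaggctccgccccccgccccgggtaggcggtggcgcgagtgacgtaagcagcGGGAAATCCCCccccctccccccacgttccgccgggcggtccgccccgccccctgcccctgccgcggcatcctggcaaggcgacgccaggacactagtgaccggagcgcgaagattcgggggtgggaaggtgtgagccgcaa
Nfkb2, first start (chr19:46304487-46304786, plus strand): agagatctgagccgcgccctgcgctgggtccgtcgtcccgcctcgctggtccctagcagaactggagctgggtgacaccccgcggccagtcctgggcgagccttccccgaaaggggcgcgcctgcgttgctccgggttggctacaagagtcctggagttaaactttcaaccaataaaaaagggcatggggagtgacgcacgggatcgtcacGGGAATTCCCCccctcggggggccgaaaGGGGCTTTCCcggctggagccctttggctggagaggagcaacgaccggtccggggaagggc
Nfkb2, second start (chr19:46305445-46305744, plus strand): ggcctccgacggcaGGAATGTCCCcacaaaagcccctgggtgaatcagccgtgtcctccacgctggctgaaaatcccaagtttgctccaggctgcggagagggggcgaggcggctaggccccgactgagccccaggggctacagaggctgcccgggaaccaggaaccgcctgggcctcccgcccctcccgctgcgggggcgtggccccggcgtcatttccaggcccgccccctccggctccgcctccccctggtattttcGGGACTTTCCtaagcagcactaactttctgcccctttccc
Icam1 (chr9:21015690-21015989, plus strand): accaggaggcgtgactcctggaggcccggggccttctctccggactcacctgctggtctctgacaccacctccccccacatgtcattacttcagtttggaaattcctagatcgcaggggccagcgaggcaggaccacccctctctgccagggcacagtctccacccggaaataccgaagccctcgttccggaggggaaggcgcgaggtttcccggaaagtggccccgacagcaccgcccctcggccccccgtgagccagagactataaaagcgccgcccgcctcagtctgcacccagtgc

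Positions in these windows are counted from 0 at the first transcribed base. The kappaB consensus was found in 6 of the 9 member windows, against 4.51% of all 32851 RefSeq windows of the same length. Nfkbia had 1 match at -29 to -20, Tnfaip3 had matches starting at -125 and -12, and Rel had 2 overlapping matches between -92 and -82. The first Nfkb2 window had 3 matches, 2 of them overlapping at -39 to -29 and the third at -11 to -2. The second had matches starting at -236 and at 10, and the last of these also lies in the third Nfkb2 window. The shorter motif GGGANTTTC was found in 1.11% of all windows. Its matches in Nfkbia at -28 to -20 and in Nfkb2 at 10 to 18 overlap the kappaB matches there, and others start at -113 in Nfkbia and at -182 in the second Nfkb2 window. Another 4 motifs were read as descriptions only. TTCNNNGAA, bound by STAT factors, occurs in 8.3% of all windows, and among the members it was found in Icam1 at -42 to -34 and in the first Nfkb2 window at -148 to -140. TGANTCA, bound by AP-1, occurs in 7.81% of windows and was found in the second Nfkb2 window at -210 to -204 and in Tnfaip3 at -136 to -130. In Tnfaip3 it overlaps a CANGTG match at -140 to -135. CANGTG, the E-box core (44.9% of windows), had 2 more matches in this window, starting at -178 and -33, and 2 in Icam1, starting at -204 and -174. The C/EBP motif TTGCNNAA (10.8% of windows) was found in none of the 9. The windows of Rela, Icam1 and the inner start of Tnfaip3 held no kappaB match, which says only that these letters are absent from these windows. The letters read were GGGRNWYYCC, where R is A or G, W is A or T, Y is C or T and N is any base. Near matches were not counted. In the Icam1 window tggaaattcc departs from these letters at its opening base only. The same holds for tggaatttcc in Tnfaip3 and aggactttcc in Nfkbia.

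All 7 members with regions were open at a gene end or start in all 4 lines, and the authors' peak calls covered these 7 regions in 8 of 8 libraries. Per kilobase of region, a scale on which genes can be compared, the level averaged over the lines was 55.1 CPM at Nfkbia, 54.8 CPM at Relb, 51.3 CPM at Nfkb2, 41.4 CPM at Rel, 28.5 CPM at Tnfaip3, 28.3 CPM at Nfkb1 and 26.4 CPM at Rela. Nfkbia was thus above 89.2% of the 14558 protein-coding genes with a gene-end region and Rela above 52.0% of them. The gene-end region is the strongest region within 1 kb of an annotated gene end. For Nfkb2, where none lay that close, the stronger of the 2 regions over its RefSeq starts was used. Levels below are in CPM per region and are compared only between samples.

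Nfkb1 encodes p105, the precursor of the p50 subunit. Its gene-end region (chr3:135690574-135692058, inside the gene) had 28.2 and 24.3 CPM in line 112, 63.4 and 58.5 CPM in line 113, 40.5 and 30.4 CPM in line 119, and 46.1 and 45.3 CPM in line 73. Line 113 was highest and line 112 lowest, so the wild-type lines lay between the knockout lines. Rela encodes p65, the main activating partner of p50. Its start region (chr19:5637102-5638124) had 22.6 and 25.9 CPM in line 112, 36.2 and 40.2 CPM in line 113, 14.7 and 15.2 CPM in line 119, and 33.8 and 27.2 CPM in line 73. Line 119 was lowest in both its libraries. Rel encodes c-Rel, the activating subunit best known from lymphocytes. Its start region (chr11:23770039-23771162) had 41.7 and 31.7 CPM in line 112, 41.7 and 43.5 CPM in line 113, 42.3 and 41.7 CPM in line 119, and 61.2 and 68.6 CPM in line 73. Line 73 stood above the other 3 lines there.

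The non-canonical branch uses p52, made from the Nfkb2 product p100, and its partner RelB. The Nfkb2 start region (chr19:46304203-46304885) had 27.5 and 23.4 CPM in line 112, 46.7 and 50.3 CPM in line 113, 20.3 and 23.3 CPM in line 119, and 47.1 and 41.9 CPM in line 73. The Relb gene-end region (chr7:19628309-19629135) had 42.8 and 29.2 CPM in line 112, 61.2 and 67.7 CPM in line 113, 32.8 and 30.9 CPM in line 119, and 49.2 and 48.9 CPM in line 73. At both genes lines 113 and 73 were above lines 112 and 119, which pairs 1 knockout line with 1 wild-type line on each side.

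Nfkbia encodes IkB alpha, the inhibitor that is resynthesised after each round of activation. Its start region (chr12:55491875-55492895) had 49.3 and 31.7 CPM in line 112, 69.8 and 78.9 CPM in line 113, 37.5 and 40.4 CPM in line 119, and 71.9 and 70.6 CPM in line 73. It showed the same arrangement as Nfkb2 and Relb. Tnfaip3 encodes A20, a ubiquitin-editing enzyme that ends signalling from TNF and Toll-like receptors. Its start region (chr10:19014716-19015752) had 22.1 and 21.9 CPM in line 112, 15.6 and 22.7 CPM in line 113, 22.6 and 24.7 CPM in line 119, and 52.7 and 54.4 CPM in line 73. Both libraries of line 73 stood above all 6 others, among which the lines overlapped or nearly touched.

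**Figure D1:**
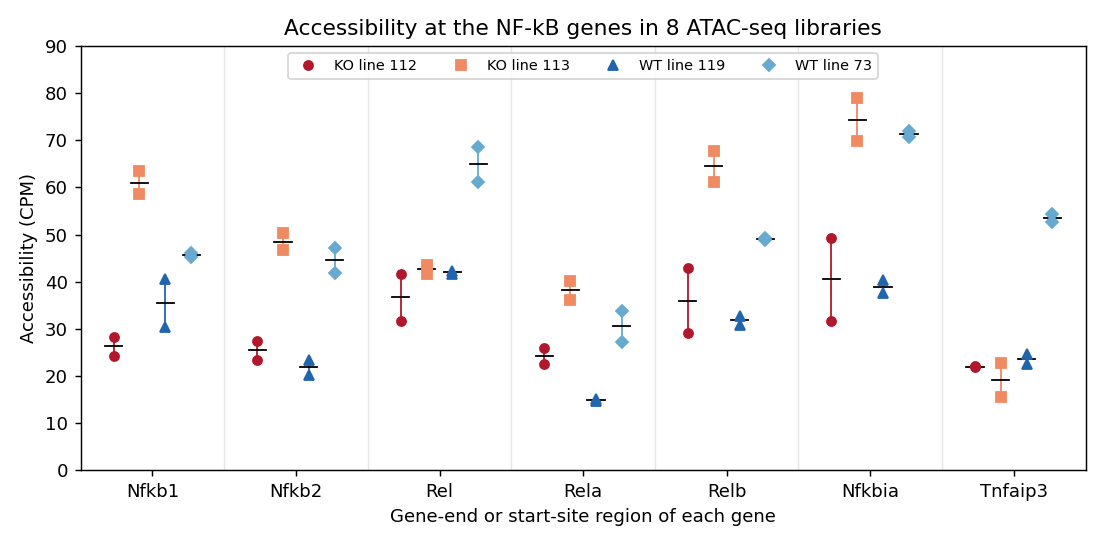
Accessibility in CPM (vertical axis) at the gene-end or start region of 7 NF-kB genes, 1 point per library, with a black bar at the mean of the 2 libraries of each line. Tnfaip3 ran from 15.6 to 24.7 CPM in lines 112, 113 and 119 and reached 52.7 and 54.4 CPM in line 73, while Nfkb2, Relb and Nfkbia were higher in lines 113 and 73.

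The genotype comparison set 2 knockout lines against 2 wild-type lines on counts added up within each line. At the 7 gene-end regions the log2 fold changes, knockout over wild type, ran from -0.91 at Tnfaip3 (SE 0.65) to 0.45 at Rela (SE 0.66). None passed edgeR's quasi-likelihood test, and the smallest p after Benjamini-Hochberg adjustment was 0.505. The knockout and wild-type libraries overlapped at all 7. At Nfkbia the mean was 57.4 ± 23.9 CPM for knockout and 55.1 ± 22.9 CPM for wild type (SD of line means, n = 2 lines each). At Nfkb1, Nfkb2, Relb and Nfkbia the sign of this small fold change turned under other scalings. At Nfkb1 it was 0.09 and became -0.08 when libraries were scaled on gene-end regions.

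The line pairs were compared with 2 libraries against 2. These tests compare lines and not genotypes, and no label states that replicate libraries were grown separately, so their p-values may measure technical spread only. Between the wild-type lines, 6 of the 7 gene-end members were lower in line 119 than in line 73 (edgeR, adjusted p under 0.05), where 59.6% of all 18188 gene-end regions were lower. In line 113, 5 of 7 were higher than in line 119, against 57.5% of all gene-end regions. In line 112, 6 of 7 were lower than in line 73 and 5 of 7 lower than in line 113, against 46.1% and 37.8%. Between lines 112 and 119, 1 of 7 was higher (Rela) and 1 lower (Nfkb1), against 22% and 12.1%. Between lines 113 and 73, 2 of 7 were higher in line 113 (Nfkb1 and Relb) and 2 lower (Rel and Tnfaip3), against 15.8% and 19.2%. With 7 regions, these shares do not set the members apart from gene ends in general.

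The higher level of lines 113 and 73 thus touched gene ends across the genome. Gene-end regions took 37.7% to 38.3% of all counts in the 4 libraries of those lines, 32.0% and 33.0% in line 112, and 27.1% and 27.5% in line 119. Lines 113 and 73 also carry the larger title numbers after p, and the part of that number or of the signal share in these differences was not tested. Scaling the libraries on gene-end regions, an alternative added after the data were seen, left 0 of 7 higher and 2 lower in line 119 than in line 73 (all gene-end regions 21.1% and 17.4%), and 0 higher and 1 lower in line 112 than in line 73 (20.7% and 18.4%). In line 113 it gave 4 higher and 2 lower than in line 119 (17.4% and 22.2%), and in line 112 it gave 1 higher and 3 lower than in line 113 (15.1% and 11.1%). Between lines 112 and 119 it gave 1 higher and 2 lower (16.1% and 17.9%), and between lines 113 and 73 it gave 2 and 2 (18.8% and 19.6%).

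Tnfaip3 was the 1 member whose gene-end level in line 73 passed the threshold against each of the other 3 lines under both scalings. Its log2 fold change against line 73 was -1.28 (SE 0.20) in line 112, -1.49 (SE 0.20) in line 113 and -1.18 (SE 0.18) in line 119. The edgeR adjusted p was 1.96e-07, 3.15e-09 and 1.98e-07. Scaled on gene-end regions the same values were -0.80, -1.46 and -0.52, with edgeR adjusted p of 0.000121, 1.42e-10 and 0.00403. Under that scaling its level in line 113 was also below line 119 (-0.94) and line 112 (0.66, line 112 over line 113). An offset for the signal of weak regions in the surrounding 10 Mb, which also follows copy number, gave -1.20, -1.14 and -1.18.

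That regional signal moved with some of the other differences. Weak regions around Rel were at -0.54 (log2, relative to the mean of the libraries) in line 113 and -0.12 to 0.25 in the other lines, and around Nfkb2 they were at -0.54 in line 119 and -0.14 to 0.21 in the others. The Rel start was lower in line 113 than in line 73 under the first 2 scalings, by -0.61 (SE 0.17, edgeR adjusted p 0.00191) and -0.58, but with the regional offset the difference was -0.19 (edgeR adjusted p 0.526). In other pairs the offset made Rel differences larger. Line 113 over line 119 went from 0.02 to 0.69 (edgeR adjusted p 0.0109 with the offset). Line 112 over line 113 went from -0.20 to -0.98 (edgeR adjusted p 0.00199 with the offset). At Rela the same offset moved the difference between lines 112 and 119 from 0.69 to 0.01. Copy number itself was not measured.

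The gene-end regions of other genes whose log2 CPM followed Tnfaip3 most closely over the 8 libraries were those of Fgfr1 (Pearson r 0.980), Ubd (0.980) and Ccl8 (0.979). They were taken from 12367 genes, of which 58 passed 0.95. As the 8 libraries are 4 lines, this mainly ranks genes high in line 73, such as Ccl8 with 23.5 CPM there and 1.18 to 3.12 CPM in the other lines.

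Some of the other member regions separated by genotype, and most of those were lower in the knockout lines. Of 71 tested regions, 14 (19.7%) had all 4 knockout libraries below all 4 wild-type libraries, against 12.6% of all 140329 tested regions. In 3 regions (4.23%) the knockout libraries were all above, against 14% of all regions. None of these 17 was one of the 7 gene-end regions described above, although 1, just beyond the end of Rela, also lies within 1 kb of a gene end. These are counts without a test. The 5 melanocyte markers without overlap were all higher in the knockout lines, and their part in these counts was not tested. By the edgeR quasi-likelihood test on line sums, 0 of 71 members passed the adjusted threshold of 0.05, as did 0% of all regions. The smallest adjusted value was 0.161 among the members and 0.143 over all regions. Even the chromosome Y genes with 0 counts in the knockout lines did not pass this test. A member that did not pass is therefore not shown to be unchanged. Before adjustment 11 of 71 (15.5%) had p under 0.05, all lower in the knockout lines, against 16.9% of all regions in either direction and 8.64% lower. DESeq2's Wald test called 3 members (4.23%, all regions 4.83%) and limma-voom 0 (all regions 0.291%). The median log2 fold change was -0.42 over the 71 members and -0.09 over all tested regions. Treating libraries as units called 14 members (19.7%, all regions 22.7%) and adding the replicate number as a block 10 (14.1%, all regions 17.3%). Both count the libraries of a line as independent samples of its genotype, although the line is the unit.

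**Figure D2:**
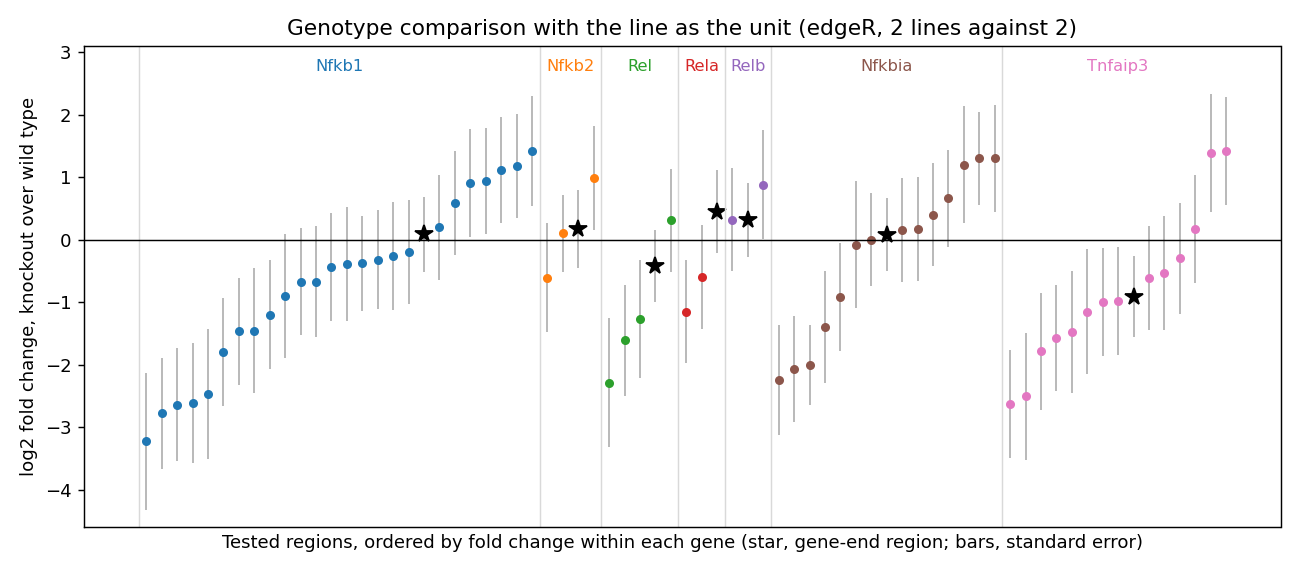
Log2 fold change of accessibility, knockout over wild type, for the 71 tested regions (vertical axis), ordered by value within each gene, with bars of 1 standard error and stars at the gene-end regions. The values run from -3.23 to 1.42, and the gene-end stars lie between -0.91 and 0.45.

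At Nfkbia a block 22.2 to 23.4 kb beyond the end of the gene was open in the wild-type lines and weaker in the knockout lines. Its stronger region (chr12:55466204-55467253) had 9.54 and 10.2 CPM in line 112, 13.8 and 17.4 CPM in line 113, 45.1 and 48.5 CPM in line 119, and 55.3 and 54.4 CPM in line 73. The 2 genotypes were apart in all 8 libraries, and in line 119 this region (46.8 CPM over 1050 bp) lay above the Nfkbia start (38.9 CPM over 1021 bp). The mean was 12.7 ± 4.08 CPM for knockout and 50.8 ± 5.72 CPM for wild type (SD, n = 2 lines each), a log2 fold change of -2.01 (SE 0.64) with an unadjusted p of 0.00568 and an edgeR adjusted p of 0.161. Every knockout line was below each wild-type line in the pair tests, with log2 fold changes of -2.48 to -1.58 and edgeR adjusted p from 2.56e-14 to 4.82e-10. Peaks were called there in 2 of 2 libraries of each wild-type line and 1 of 2 of each knockout line.

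The adjoining region (chr12:55465522-55466050) was at 1.86 and 3.39 CPM in line 112, 5.66 and 3.63 CPM in line 113, 14.3 and 15.4 CPM in line 119, and 15.4 and 15.3 CPM in line 73. It again had no overlap between genotypes (log2 fold change -2.07, SE 0.85, edgeR adjusted p 0.235). A region 25.3 kb upstream of Nfkbia (chr12:55517948-55518833) had 3.26 and 4.92 CPM in line 112, 3.17 and 2.18 CPM in line 113, 20.6 and 24.8 CPM in line 119, and 9.47 and 8.06 CPM in line 73. It was highest in line 119, and its log2 fold change was -2.25 (SE 0.88, edgeR adjusted p 0.218). Peaks at both regions were called in the 4 wild-type libraries and in 0 of the 4 knockout libraries.

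Other Nfkbia elements differed between lines and overlapped between genotypes. The region with the widest range between lines lay 27.6 kb upstream and had line means of 2.01, 5.36, 7.18 and 0.534 CPM in lines 112, 113, 119 and 73. A region 15.1 kb downstream was highest in line 113 at 31.7 CPM, followed by line 112 at 15.9, line 119 at 12.2 and line 73 at 6.92 CPM. Both knockout lines were thus above both wild-type lines there (log2 fold change 1.30, SE 0.75, edgeR adjusted p 0.391), although single libraries of lines 112 and 119 overlapped. A region 24.6 kb downstream also peaked in line 113, at 24.3 CPM, and was lowest in line 112, at 5.07 CPM. Summed over all 15 Nfkbia regions, line 113 had 209 CPM, line 119 had 201 CPM and line 73 had 208 CPM, while line 112 had 115 CPM. Near-equal sums in 3 lines were therefore made of different elements, and the gene-end region was 19.3% of the sum in line 119 and 34.3% to 35.7% in the other lines.

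**Figure D3:**
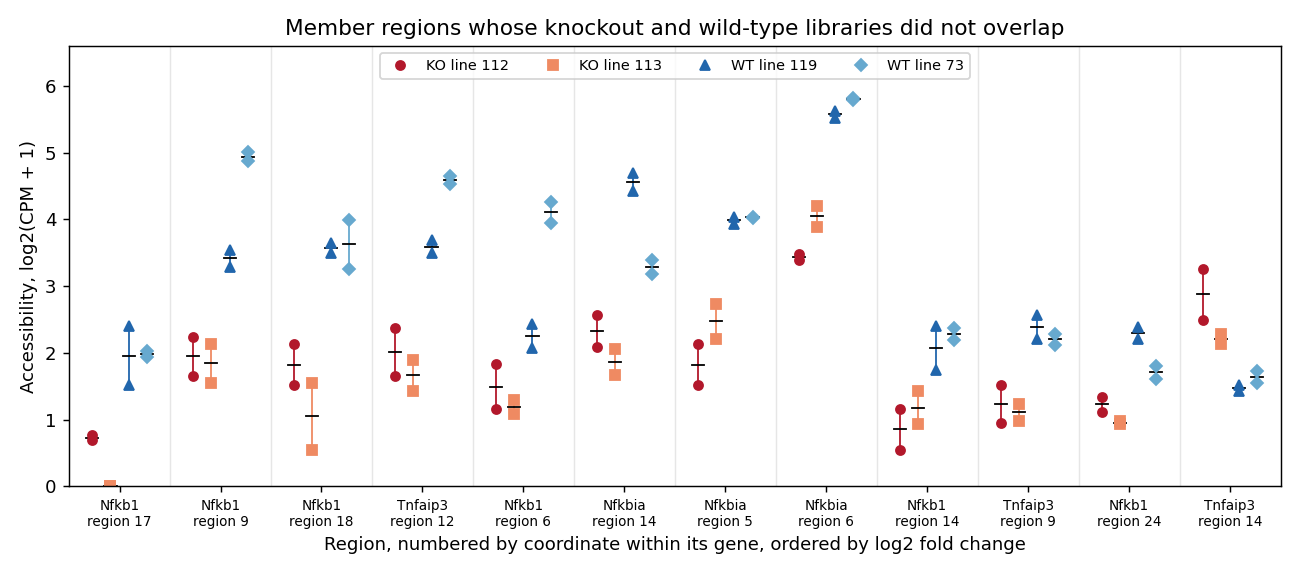
Accessibility as log2 of CPM plus 1 (vertical axis) in 8 libraries at the 12 member regions with the largest fold changes among those whose knockout and wild-type libraries did not overlap, with 1 point per library and a bar at each line mean. In 11 of the 12 the knockout libraries lie below, and at Tnfaip3 region 14 they lie above.

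Nfkb1 had 7 of its 26 tested regions without overlap, all lower in the knockout lines (26.9%, beside 12.6% of all regions lower and 14% higher). The largest signal was inside the gene (chr3:135641042-135641908), with 3.72 and 2.15 CPM in line 112, 3.4 and 1.94 CPM in line 113, 10.7 and 8.78 CPM in line 119, and 28.4 and 31.1 CPM in line 73. The wild-type lines themselves differed, line 119 being below line 73 by -1.60 (SE 0.24, edgeR adjusted p 1.26e-07). Its genotype log2 fold change was -2.78 (SE 0.89, edgeR adjusted p 0.161). A second element inside the gene (chr3:135628607-135629136) had knockout line means of 1.9 and 1.29 CPM and wild-type line means of 3.8 CPM (line 119) and 16.3 CPM (line 73). Another, 20.3 kb beyond the high-coordinate end (chr3:135712243-135712921), was at 1.86 and 3.39 CPM in line 112, 0.453 and 1.94 CPM in line 113, 11.5 and 10.3 CPM in line 119, and 14.9 and 8.61 CPM in line 73. Here the wild-type lines differed by -0.11 (log2, line 119 over line 73, SE 0.28), and the genotype log2 fold change was -2.64 (SE 0.90, edgeR adjusted p 0.176). All 3 of these were called as peaks in the 4 wild-type libraries and in 0 knockout libraries.

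The weakest of these elements lay next to this last one (chr3:135711619-135712119). It had 3 and 2 counts in line 112, 0 and 0 counts in line 113, 33 and 11 counts in line 119, and 11 and 11 counts in line 73. A count of 0 allows up to 0.68 and 0.726 CPM in the libraries of line 113 (counting error only), beside 1.86 to 4.27 CPM in the wild-type libraries. Its fitted fold change, the lowest of the members at -3.23, depends on how counts of 0 are treated. The other 3 Nfkb1 regions of this kind had line means under 4 CPM and log2 fold changes of -1.80 to -1.20.

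Other Nfkb1 elements were high or low in single lines. The region with the widest range of all lay 34.0 kb beyond the high-coordinate end (chr3:135726002-135726575), with 25.7 and 26.8 CPM in line 119 and 1.45 to 4.92 CPM in the 6 other libraries. It was a peak only in line 119, in both its libraries. A region inside the gene, 9.51 kb from the low-coordinate end, had line means of 4.52, 13.1, 29.7 and 2.38 CPM in lines 112, 113, 119 and 73. Another inside the gene, 20.6 kb from the other end, was at 5.68 CPM in line 112 against 17.0 to 22.8 CPM in the other lines. Line 112 also had the lowest sum over the 27 Nfkb1 regions, 90.9 CPM, while lines 113, 119 and 73 had 177, 202 and 197 CPM.

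**Figure D4:**
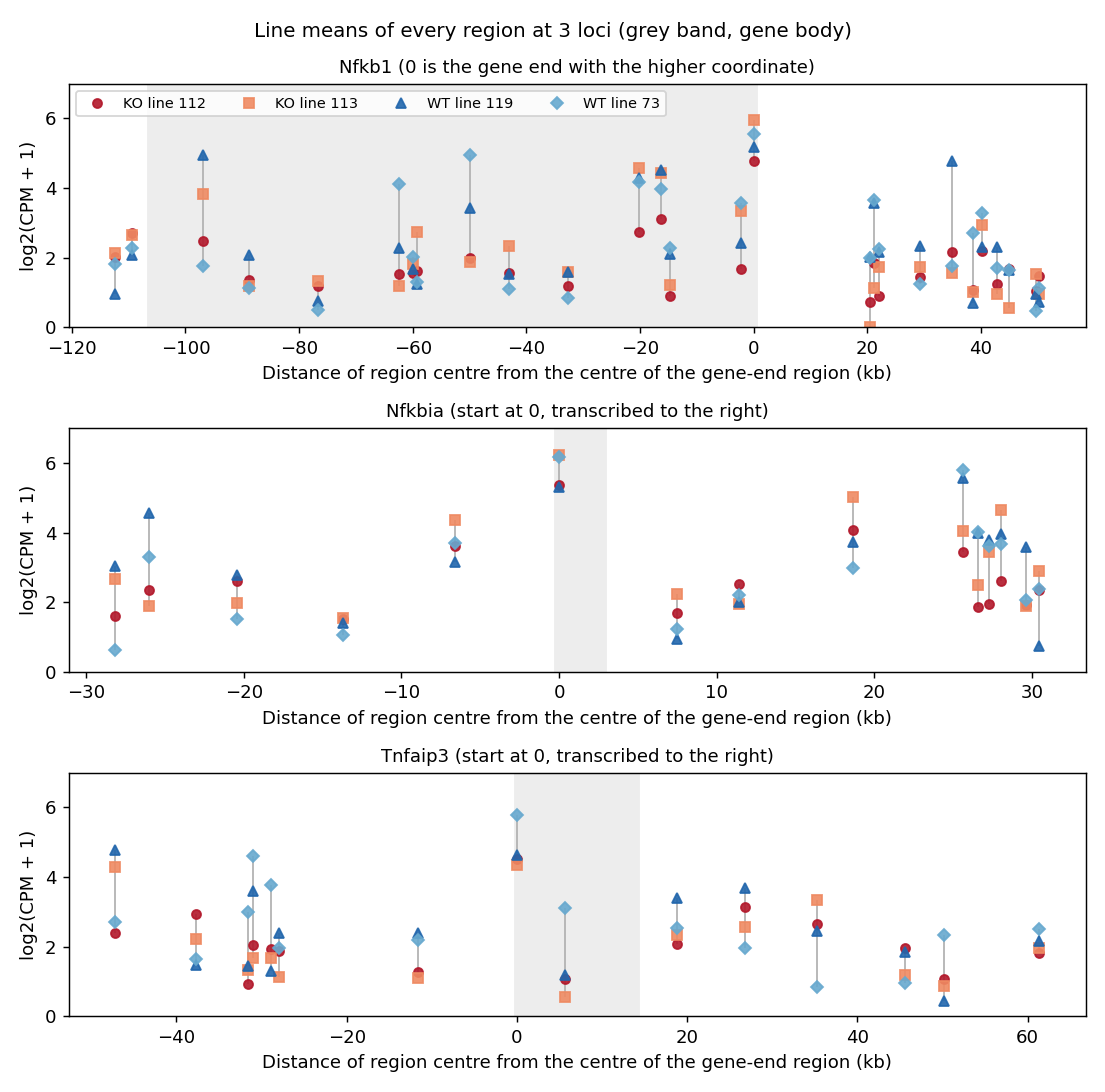
Line means as log2 of CPM plus 1 (vertical axes) for every region of Nfkb1, Nfkbia and Tnfaip3 against the distance in kb from the centre of the gene-end region (horizontal axes), with the gene body as a grey band. At Nfkbia the wild-type lines lie above the knockout lines near 26 kb, at 46.8 and 54.9 CPM against 9.85 and 15.6 CPM, and at Nfkb1 line 119 stands alone near 35 kb at 26.3 CPM.

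Tnfaip3 carried a cluster of 3 elements 28.4 to 31.1 kb upstream of its start, each highest in line 73. Its leading region (chr10:19045929-19046461) had 4.19 and 2.15 CPM in line 112, 2.72 and 1.69 CPM in line 113, 11.9 and 10.3 CPM in line 119, and 24.1 and 22.2 CPM in line 73. The genotypes did not overlap (log2 fold change -2.63, SE 0.87, edgeR adjusted p 0.171), and line 119 was below line 73 by -1.05 (SE 0.24, edgeR adjusted p 0.000219). The neighbour 28.4 kb upstream was raised in line 73 alone, with 13.1 and 12.2 CPM against 1.01 to 2.79 CPM in the other 6 libraries. An element inside Tnfaip3, 2.14 kb from the start (chr10:19009304-19009822), had 7.17 and 8.06 CPM in line 73 and 0.227 to 1.68 CPM elsewhere. Its peaks were called in line 73 only. In this line the start, this internal element and the upstream cluster of 3 elements were at their highest. Other upstream regions were not, those 11.2, 27.5 and 46.5 kb upstream being highest in line 119 and that 37.2 kb upstream in line 112.

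The opposite direction was also seen at Tnfaip3. A region 37.2 kb upstream (chr10:19052592-19053217) had 8.61 and 4.62 CPM in line 112, 3.4 and 3.87 CPM in line 113, 1.68 and 1.86 CPM in line 119, and 2.3 and 1.94 CPM in line 73. All knockout libraries were above all wild-type libraries, at a log2 fold change of 1.42 (SE 0.86, edgeR adjusted p 0.416). Downstream, 20.6 kb beyond the gene end, line means in the order 112, 113, 119 and 73 were 5.29, 9.2, 4.5 and 0.79 CPM. There too all knockout libraries were above all wild-type libraries (log2 fold change 1.39, SE 0.94, edgeR adjusted p 0.479). A region 46.5 kb upstream overlapped between genotypes and did not share this direction (log2 fold change -0.53, SE 0.91). It was open in lines 113 and 119, at 18.4 and 26.3 CPM, and low in lines 112 and 73, at 4.21 and 5.49 CPM.

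Rel, Rela, Relb and Nfkb2 had few regions besides their starts. Inside Rel, 12.0 kb from the start (chr11:23758439-23758994), line 73 had 8.45 and 8.61 CPM and the other 6 libraries 0.308 to 1.63 CPM, with peaks in line 73 only. Just beyond the end of Rela, at 0.349 kb (chr19:5648483-5649172), the libraries had 3.49 and 6.16 CPM in line 112, 4.3 and 5.81 CPM in line 113, 7.11 and 9.62 CPM in line 119, and 13.6 and 12.8 CPM in line 73. The genotypes did not overlap there, and the log2 fold change was -1.15 (SE 0.83, edgeR adjusted p 0.514). A Nfkb2 element 5.15 kb downstream, which overlaps the gene Psd, was higher in all knockout libraries (6.98 to 11.9 CPM against 3.55 to 6.66 CPM). The Nfkb2 element with the widest range, 6.58 kb downstream and also in Psd, was highest in line 73 at 13.6 CPM. At Relb the widest other region lay inside the gene and had line means of 0.596 to 2.59 CPM, with no peak call in any library.

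Counted over all 71 tested members, the line pairs differed about as often as regions did in general. Between lines 112 and 119 the edgeR test called 31 members (43.7%, all regions 45.8%), and between lines 112 and 73 it called 40 (56.3%, all regions 49.9%). Between lines 113 and 119 it called 43 (60.6%, all regions 58.9%), with 20 higher and 23 lower in line 113 (all regions 30.2% and 28.8%). Between lines 113 and 73 it called 38 (53.5%, all regions 52.2%), 14 higher and 24 lower in line 113 (all regions 25.8% and 26.5%). Within genotypes it called 21 between lines 112 and 113 (29.6%, all regions 23.8%) and 39 between lines 119 and 73 (54.9%, all regions 56.9%), the last with 15 higher and 24 lower in line 119 (all regions 27.5% and 29.4%). Line 112 was the line in which members were most often low, with 25 lower and 6 higher against line 119 (all regions 23.5% lower and 22.2% higher), 33 lower and 7 higher against line 73 (26.1% and 23.8%), and 18 lower and 3 higher against line 113 (15.6% and 8.24%).

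These splits depend on the scaling, since scaling on gene-end regions set the median log2 fold change of all regions between -0.53 and 0.56 in the 6 pairs, beside -0.10 to 0.10 before. Under it 10 members were higher and 19 lower in line 112 than in line 73, where 34.8% of all regions were higher and 15.7% lower. Line 112 against 113 gave 11 higher and 10 lower (all regions 20.5% and 6.17%), and line 112 against 119 gave 6 and 29 (17.9% and 27.9%). Line 113 against 119 gave 11 and 34 (14.3% and 41.7%), line 113 against 73 gave 14 and 23 (26.5% and 26%), and line 119 against 73 gave 25 and 12 (40.4% and 12.8%). By library totals alone line 112 had 9 higher and 21 lower against line 119 (all regions 26.2% and 21.1%) and 8 higher and 12 lower against line 113 (15.7% and 8.64%). Lower members outnumbered higher ones in line 112 against line 119 under TMM, gene-end scaling and library totals alike. Against line 113 they did so under TMM and library totals. Scaled on gene-end regions the counts there were 11 and 10, where more of all regions were higher than lower. The regional offset gave 4 higher and 27 lower against line 119 (all regions 14.8% and 27.7%), and 3 and 19 against line 113 (2.67% and 21.9%). In the same order DESeq2 size factors gave 6 and 27 (20.2% and 25%), and 3 and 18 (7.8% and 15.6%).

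Icam1 encodes the adhesion molecule ICAM-1, a classical NF-kB target. The count table had 0 regions inside it, and the authors' lists had 0 peaks inside the gene or within 2 kb of its start in each of the 8 libraries, which held 20387 to 94906 peaks. Opening inside Icam1 or near its start was thus not detected at this depth in any line. The closest regions belonged to neighbouring genes. The one at Mrpl4, 12.2 kb before the Icam1 start, had 15.5 to 27.7 CPM, and the one at Icam4, 0.524 kb after the Icam1 end, had 4.35 to 10.3 CPM. The region at Icam4 lies within 1 kb of the Icam1 end. It was not counted as a member because the nearest gene end is that of Icam4.

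The wider pathway was read from 34 other genes, all with a gene-end region. In the genotype comparison 0 of 34 passed the threshold (edgeR, adjusted p under 0.05) and the median log2 fold change was -0.06. In 4 genes all knockout libraries were below all wild-type libraries and in 0 above, beside 6.42% and 6.77% of all gene-end regions. They were Cxcl1, Ccl2, Birc3 and the atypical IkB gene Nfkbid. Cxcl1, a neutrophil chemokine, had 1.86 and 3.39 CPM in line 112, 2.72 and 0.968 CPM in line 113, 13.6 and 13.7 CPM in line 119, and 38.2 and 38.9 CPM in line 73. It was lower in both knockout lines and higher in line 73 than in line 119 (log2 fold change by genotype -3.56, SE 0.88, edgeR adjusted p 0.143). Ccl2, a monocyte chemokine, had line means of 3.24 and 2.61 CPM in lines 112 and 113 and 19.3 and 33.6 CPM in lines 119 and 73. Its log2 fold change was -3.19 (SE 0.82, edgeR adjusted p 0.143).

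Birc3, the inhibitor of apoptosis cIAP2, followed the same order with line means of 4.17, 1.56, 11.7 and 24.9 CPM (-2.70, SE 0.90, edgeR adjusted p 0.171). Ptgs2, which encodes COX-2, was open in line 73 alone, at 52.7 and 52.5 CPM against 1.45 to 4.52 CPM in the other 6 libraries. The receptor gene Il1r1 was likewise highest in line 73, at 8.19 and 5.0 CPM against 0.242 to 2.46 CPM. The 5 IKK and upstream kinase genes had log2 fold changes of -0.17 to 0.36 by genotype and 0 regions without overlap. All 5 were higher in line 113 than in line 119 and higher in line 73 than in line 119, as were 57.5% and 59.6% of gene ends in general. Over the whole list 28 of 34 were lower in line 119 than in line 73 and 0 higher, where 59.6% of all gene-end regions were lower and 10.6% higher. For the 12 feedback and target genes this was 11 lower and 0 higher. The pair calls on these 34 genes are given under TMM only, and they too may depend on the scaling. Scaled on gene-end regions, 17.4% of all gene-end regions were lower in line 119 than in line 73 and 21.1% higher. By the size of the difference Ptgs2 (-3.71), Il1r1 (-3.44), Tnip1 (-2.70) and Vcam1 (-2.32) led, all far beyond the gene-end median of -0.69 in that pair. In line 119 Il1r1 had 0.517 and 0.675 CPM and Tnip1 0.905 and 0.844 CPM. There 3 counts are 0.388 and 0.507 CPM, so the sizes at Il1r1 and Tnip1 rest on few counts. Vcam1 had 2.97 and 2.7 CPM in line 119 and 16.6 and 11.9 CPM in line 73.

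**Figure D5:**
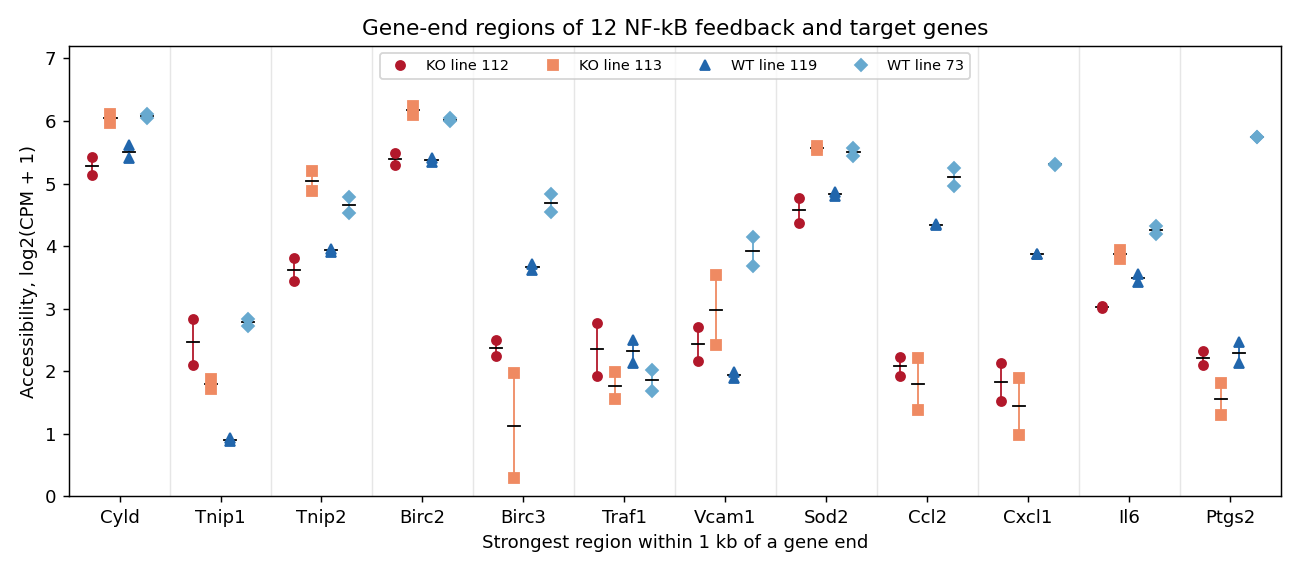
Accessibility as log2 of CPM plus 1 (vertical axis) at the gene-end regions of 12 NF-kB feedback and target genes, 1 point per library with a bar at each line mean. Cxcl1, Ccl2 and Birc3 lie lower in the knockout libraries, and Ptgs2 stands apart in line 73 at 52.7 and 52.5 CPM.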

How the data were processed

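The deposited files were raw counts of the 8 libraries over a shared set of regions and a peak list per library. Per the submitters' processing notes, Bowtie2 2.2.4, Picard 1.118 and MACS2 2.1.1.20160309 were used with mm10/GRCm38. What was counted (reads, fragments or insertions) and how duplicates and the transposase shift were handled is not given in the sources used here. The score, the fold (ratio) over background and the −log10 p and q in the deposited peak lists are each peak's own values from the authors' caller. Only peak positions were used, and a shallower library has fewer calls. Per the labels' protocols 50000 cells were used per reaction and fragments over 1200 bp were excluded. The count table had 0 columns of other samples.

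Gene names and distances came from RefSeq genes of GRCm38.p6. Start and end are counted from 1. filterByExpr on line sums (at least 10 counts, 15 in total) kept 140329 regions, and scaling was by TMM. edgeR 4.0.16 (R 4.3.3, glmQLFit and glmQLFTest, robust, two-sided) compared line sums by genotype, and the 8 libraries by line for the pairs, with Benjamini-Hochberg adjustment over all tested regions and a threshold of 0.05. The standard error is the log2 fold change divided by the square root of F. Alternatives used DESeq2 1.42.0, limma 3.58.1 (voom), other scalings, filters and distances, and each replicate left out. The code was tested on simulated data with 200 changed regions among 20000, with a spread between lines that was set and not estimated. The genotype comparison recovered 0% of 2-fold, 15% of 4-fold and 100% of 16-fold changes. The line pair comparison recovered 26%, 79.5% and 100%. Genotype differences of a few fold could thus be missed. Larger ones could be missed too, as the simulated recovery does not carry over to these data. Dct and Mlana, each with a genotype log2 fold change of 4.25, had an edgeR adjusted p of 0.143. Members and lists were chosen with earlier results of these data known. Regions were named as each gene's gene-end region, its other region with the widest range between lines, and up to 12 regions without overlap between genotypes. Other regions named, and the chromosome Y genes, were picked with their values known. Replicates of a line gave a chi-square per degree of freedom of 1.07 to 1.98 and correlations of 0.863 to 0.957, and all were kept. Limits from a count of 0 cover counting error only.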

Additional observations from a re-analysis of the deposited data

Results flagged for a closer look

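A library was marked when it stood far from the other 3 libraries of its genotype by Dixon's test at the 95% level. Among 52 groups this marked 3, and chance marks about 1 in 20. At the Rel start, line 112 replicate 2 had 31.7 CPM, below the 41.7 to 43.5 CPM of the other knockout libraries. At the Tnfaip3 start, line 113 replicate 1 had 15.6 CPM, below 21.9 to 22.7 CPM in the other 3. At the Nfkbia element 23.4 kb downstream, line 119 replicate 1 had 14.3 CPM beside 15.3 to 15.4 CPM, a small gap within a tight group.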

How the results depend on the processing

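With lines as units, members called by genotype stayed at 0 in every setting run except DESeq2's Wald test (3, 4.23%, all regions 4.83%); with libraries as units there were 14 (19.7%, all regions 22.7%), and 10 with the replicate block (14.1%, all regions 17.3%). The replicate numbers did not pair the lines (correlations of deviations -0.0367 to 0.00386), and the replicate block left the pair counts within 1.5 times, for example 29 for line 112 against 119 (40.8%, all regions 45.1%). Over all regions, leaving out line 112 replicate 1 gave 419 higher and 214 lower calls by genotype and the regional offset 506 and 290, none of them members. In the order 112 against 119, 112 against 73, 113 against 119, 113 against 73, 112 against 113 and 119 against 73, the filter of at least 50 counts on average called 11, 8, 16, 12, 9 and 14 members of the 19 left to test, beside 49.7%, 57.4%, 59.3%, 59.5%, 30.9% and 62.9% of all regions. Members within 10 kb gave 13, 18, 22, 19, 13 and 21 of 38. DESeq2's Wald test gave 19 for line 112 against 119 (26.8%, all regions 25.7%). With each replicate left out in turn the ranges were 24 to 31, 29 to 37, 31 to 44, 25 to 39, 13 to 20 and 28 to 40, beside 31.8 to 46.1%, 39.5 to 50.6%, 46.4 to 61.7%, 44.4 to 55.2%, 12.5 to 23.8% and 44.2 to 59.7% of all regions. The lowest value for line 113 against 73 was without line 73 replicate 2, and that for line 112 against 113 without line 113 replicate 1.

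Members without overlap and higher in the knockout lines numbered 5 by total counts (all regions 15.4%), 1 with the filter of 50 (10.7%), 1 within 10 kb and 3 to 7 with a replicate left out (15.4 to 17.3%; 7 without line 112 replicate 2, 6 without line 112 replicate 1 or line 119 replicate 1, 5 without line 73 replicate 1). Those lower numbered 4 with the filter of 50 (16.2%), 4 within 10 kb and 14 to 22 with a replicate left out (13.5 to 16.4%; 22 without line 112 replicate 2). Genotype log2 fold changes near 0 turned sign at Nfkb1 (-0.07 with the regional offset, -0.02 with the filter of 50, -0.08 scaled on gene-end regions), Nfkb2 (-0.39 regional), Relb (-0.00 regional) and Nfkbia (-0.28 regional, -0.01 scaled on gene-end regions, -0.07 without line 112 replicate 1, up to 0.15 with another replicate left out). The Nfkbia element 27.6 kb upstream turned to 0.38 with voom and to 0.02, 0.01 and 0.06 without line 112, 113 or 119 replicate 2, with -0.27 the lowest when a replicate was left out. The cause was not tested. Over all 71 tested members 58 kept the sign of the genotype log2 fold change under every alternative fitted to them and 13 turned. The distal elements printed with an unadjusted or adjusted genotype p kept it, the Nfkbia region 22.2 kb downstream from -2.35 to -1.92. Depth limits the weak elements, many of which had under 20 counts in a knockout library.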
